A study of Mus musculus with 4 samples.

Results

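The genes described here encode the subunits and assembly factors of the mitochondrial respiratory chain and of ATP synthase, and their allele-specific expression (ASE) was measured in mouse gonadal adipose tissue. Members were taken by symbol: genes beginning with Nduf, with Cox and a digit, with Uqcr, with Sdha to Sdhd or with Atp5, on chromosomes 1 to 19. Of 8013 genes with exonic SNP rows, 34 were members, and 15 further members had intronic rows only, which gave 49 members in all. The 34 genes had 87 counted exonic SNPs of 44746 in the series, and these SNPs were covered by 91216 reads.

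The mice were F1 animals of the reciprocal crosses between C57BL/6J (B) and DBA/2J (D), kept on chow, and each F1 cell therefore carried 1 B and 1 D copy of every member. RNA was pooled before sequencing, so each group was 1 library: a BxD female pool of 3 animals, a DxB female pool of 2 animals, a BxD male pool of 3 animals and a DxB male pool of 3 animals. The labels give an age of 8 weeks, while the methods of the study give a later one. No pure-strain animal or untreated control was analysed here, and the B and D reads of one pool served as each other's reference.

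The respiratory chain passes electrons from NADH through complex I, or from succinate through complex II, to complex III and then to oxygen at complex IV, and the proton gradient built on the way drives ATP synthase. All members are encoded in the nucleus, and their proteins are assembled in the inner mitochondrial membrane with a few partners encoded by mitochondrial DNA. White adipose tissue has fewer mitochondria than brown adipose tissue, in which Ucp1 lets protons back without ATP being made.

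The pools held between 4331417 and 5736152 allele-counted reads, of which 3379195 to 4297891 were at the exonic SNPs used, with 1.13 to 1.18 B reads for each D read over all genes. On the X chromosome, 98.6% of the reads at exonic SNPs with both alleles seen were from B in the library labelled DxB female, against 54.0% in the BxD female pool, 57.4% in the library labelled BxD male and 16.9% in the pool of DxB males. With the mother's strain named first, a BxD male carries a single X from B, and a DxB male a single X from D. In the DxB male pool 16.9% of these reads were nevertheless from B, and the reason was not tested. A female carries an X of each strain. The 2 libraries labelled DxB female and BxD male thus went against their labels. The file names of these 2 give the opposite cross and sex. They are called by their labels throughout, and results by sex or parent are given under both identities, while the comparison of the B with the D allele does not depend on them. Adipocyte genes with SNPs (Lep, Cidec and Lpl) were covered in every pool. Reads for the brown adipocyte gene Ucp1 numbered 148, 1, 1700 and 4, and those for the epididymis gene Adam7 0, 0, 0 and 180, in the order BxD female, labelled DxB female, labelled BxD male and DxB male. This order of the pools is kept wherever 4 values are listed.

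To show what was counted, the 29 bases around the SNPs on which the results turn are given from the plus strand of mm9, 5′ to 3′, with the SNP in capitals as the B base. Substitutions are written as the B base, the position counted from 1 at the left end of the window, and the D base. The first 6 lines are coding SNPs with under 1% of reads from D, and the last 4 are coding SNPs of the genes with more D reads that are described most fully, Ndufb7 and Cox18, the latter in the order of the chromosome.
Ndufb5 (T15A, non-synonymous, chr3:32649999-32650027): accctggtatcaatTtccaacccctgaaa
Ndufb5 (G15A, synonymous, chr3:32650039-32650067): gatcattctccaaaGgcaactcctgacaa
Uqcrh (T15C, non-synonymous, chr4:115742506-115742534): ctgtacaatcctctTctgtctgtgaccgg
Cox8a (G15A, non-synonymous, chr19:7291900-7291928): gctgctcccgcgccGgcttcgagtggacc
Ndufc2 (C15A, non-synonymous, chr7:104548701-104548729): gatgaacggccggcCgggccatgagccct
Ndufc2 (T15G, non-synonymous, chr7:104556157-104556185): gccattccatccagTgcgttgaagttttc
Ndufb7 (A15G, synonymous, chr8:86094731-86094759): atggtggccacacaAcaagagatgatgga
Cox18 (A15G, non-synonymous, chr5:90646593-90646621): aaaatttgtaacatAcatttgaaaacgag
Cox18 (T15C, non-synonymous, chr5:90648503-90648531): atacagctctgagaTaagtctccgcatgt
Cox18 (C15T, non-synonymous, chr5:90652887-90652915): ggcgggcggtgatcCcggtgccgggagcc
The B base was the mm9 base at 95 of 95 member SNPs. Each of the 10 windows occurred once in mm9 on both strands together, and its D version did not occur.

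The comparison of strains asked whether the B and the D allele of a gene were expressed at the same level in the same cells. Reads were summed over the exonic SNPs of a gene, and D was compared with B over the 4 pools with the edgeR quasi-likelihood test, with a Benjamini-Hochberg adjusted p below 0.05 as the threshold. Of 7927 genes tested, 1453 passed, which is 18.3% (13.3% with B higher and 5.06% with D higher). Of the 34 members 10 passed, 6 with B higher (Ndufb5, Ndufc2, Ndufs6, Uqcrh, Cox8a and Atp5j) and 4 with D higher (Ndufb7, Ndufa12, Cox18 and Atp5g1). The median log2 ratio of D to B was 0.019 over the members and -0.027 over all genes tested. In 27 of the 34 genes between 30% and 70% of the reads were from D. When each pair of B and D libraries from one pool was blocked, 15 members passed, 8 of them with D higher, against 32.7% of all genes (13.4% with D higher). When B and D of a pool were scaled by one common library size, so that the overall surplus of B was kept, which moves the median of all genes by -0.125 on the log2 scale, 18.2% of all genes passed, 15.1% with B higher and 3.05% with D higher, and the members split as before, 6 with B and 4 with D higher.

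**Figure D1:**
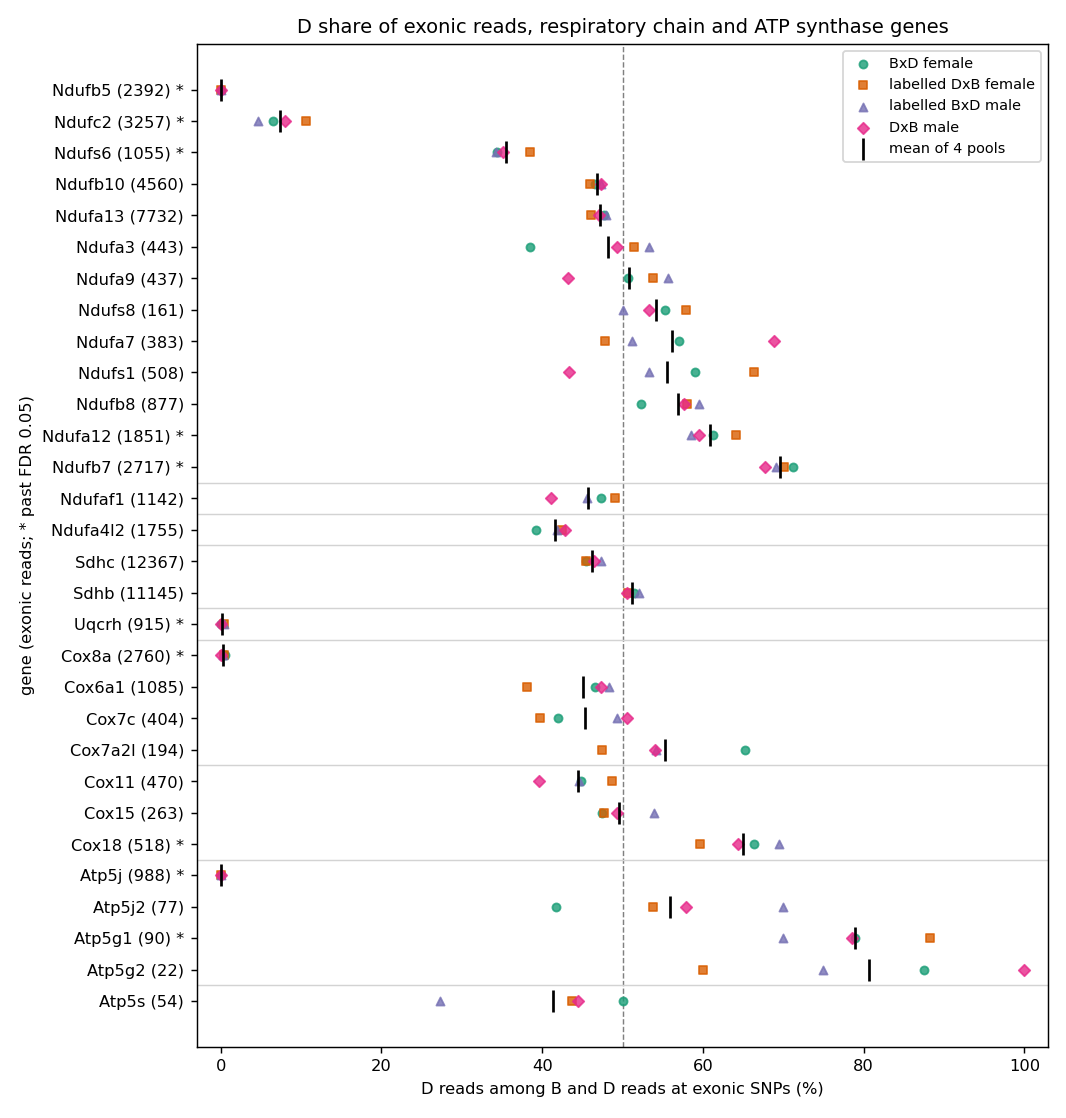
Share of D reads among B and D reads at exonic SNPs (x axis, %) for 30 members with at least 20 exonic reads (y axis, reads in parentheses, an asterisk for an adjusted p below 0.05), grouped by complex. Each of the 4 symbols is a pool and the bar is their mean. Ndufb5, Uqcrh, Cox8a and Atp5j lie at or near 0% in all pools, and most other genes lie around the dashed line at 50%.

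Complex I, which takes electrons from NADH, had 14 subunit genes with exonic SNPs, of which 5 passed. Ndufb5, an accessory subunit, had 655, 727, 559 and 451 B reads and no D read in any pool. A count of 0 among 2392 reads allows a share of D reads of up to 0.125% (3 reads over the 4 pools, edgeR adjusted p = 1.05e-08). Such counts are shares of reads with the listed D base. The study sequenced D genomic DNA at some SNPs with only B reads, all outside these members, and found the B base at each. The counts are therefore not read here as fold differences between alleles. Both Ndufb5 SNPs, 40 bp apart in the exon at chr3:32649950-32650481, had no D read, with 1358 and 1034 B reads. A read that covers both is counted at each, and taken singly they allow up to 0.221% and 0.290%. Ndufc2, also an accessory subunit, had 768, 793, 855 and 600 B reads against 53, 94, 42 and 52 D reads, a D share of 7.43% ± 2.51 (SD, n = 4) and a log2 ratio of -3.51 ± 0.22 (SE, edgeR adjusted p = 2.00e-07). Ndufs6, an accessory subunit that binds zinc, had 172, 150, 200 and 159 B reads against 90, 94, 104 and 86 D reads, a D share of 35.5% ± 2.02 and a log2 ratio of -0.74 ± 0.16 (edgeR adjusted p = 0.00470). In all 3 genes the B reads exceeded the D reads in every pool.

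The other complex I subunits that passed had more D reads. Ndufb7, whose single counted SNP is in the exon at chr8:86094728-86094897, had 198, 188, 237 and 204 B reads and 491, 441, 531 and 427 D reads. Its D share was 69.5% ± 1.52 (SD, n = 4), with a log2 ratio of 1.31 ± 0.15 (SE, edgeR adjusted p = 3.79e-05). Ndufa12 had 166, 187, 206 and 164 B reads and 262, 335, 290 and 241 D reads, a D share of 60.8% ± 2.50 and a log2 ratio of 0.76 ± 0.15 (edgeR adjusted p = 0.00320). For both genes the D reads exceeded the B reads in all 4 pools. The Ndufa12 call rested on 3′ UTR SNPs: 3 counted SNPs there had 60.8% to 62.5% D reads, whereas 2 synonymous SNPs of the same exon had 28 B and 25 D reads, and 7 B reads and no D read. The B windows of 1 of the 3 and of the synonymous SNP with more reads occurred 2 times in mm9, and the D window of the other synonymous SNP occurred there once. When SNPs were kept at least 50 bp apart, which leaves only the synonymous SNPs, the log2 ratio of Ndufa12 was -0.34 (edgeR adjusted p = 0.684).

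The remaining 9 complex I subunits did not pass. Ndufa13 had 47.2% ± 0.84 (SD, n = 4) of 7732 reads from D and Ndufb10 46.8% ± 0.68 of 4560. Ndufb8 had 84, 121, 85 and 86 B reads and 92, 167, 125 and 117 D reads, with D higher in every pool and a log2 ratio of 0.55 ± 0.22 (edgeR adjusted p = 0.130). Ndufs1, the largest core subunit, had 55, 44, 64 and 60 B reads and 79, 87, 73 and 46 D reads, so the DxB male pool went the other way (log2 ratio 0.45 ± 0.21, edgeR adjusted p = 0.194). With pools blocked, the adjusted p was 0.000338 for Ndufb8 and 0.0461 for Ndufs1. Ndufa3, Ndufa7, Ndufa9 and Ndufs8, with 161 to 443 reads, did not pass in any fit of exonic reads given here. Ndufaf1, a chaperone of complex I assembly, had 45.7% ± 3.42 of 1142 reads from D and did not pass. Ndufa4l2, a relative of the complex IV subunit Ndufa4, had 229, 305, 249 and 240 B reads and 148, 225, 179 and 180 D reads. Its B reads were more numerous in every pool, but the log2 ratio of -0.35 ± 0.19 did not pass (edgeR adjusted p = 0.272), and it passed with pools blocked (0.00170).

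Complex II, succinate dehydrogenase, which also belongs to the citric acid cycle, was represented by the iron-sulfur subunit Sdhb and the membrane anchor Sdhc. Sdhb had 1321, 1386, 1648 and 1076 B reads and 1397, 1426, 1792 and 1099 D reads, so D was slightly higher in each pool. Its D share was 51.2% ± 0.71 (SD, n = 4) and its log2 ratio 0.20 ± 0.15 (SE), which did not pass (edgeR adjusted p = 0.451) but did with pools blocked (0.00326). Sdhc had 46.1% ± 0.89 of 12367 reads from D, with a log2 ratio of -0.09 ± 0.14 (edgeR adjusted p = 0.735).

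Complex III, cytochrome bc1, had exonic SNPs in Uqcrh and Uqcrb. Uqcrh, the hinge protein between cytochrome c1 and cytochrome c, had 251, 240, 227 and 195 B reads and 0, 1, 1 and 0 D reads. Its D share was 0.219% (95% Wilson interval 0.0600% to 0.793%), and the difference passed (edgeR adjusted p = 1.59e-09). Both of its SNPs, 24 bp apart in the exon at chr4:115742467-115742629, had 1 D read. A read that covers both is counted at each, and the Wilson intervals of the single SNPs reached 0.899% and 1.93%. Uqcrb had only 17 reads and did not pass.

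Complex IV, cytochrome c oxidase, had exonic SNPs in 5 subunit or isoform genes and 4 assembly factors. Cox8a, the smallest subunit, had 573, 701, 826 and 652 B reads and 3, 3, 2 and 0 D reads at its counted SNP, a D share of 0.290% (95% Wilson interval 0.147% to 0.571%) that passed (edgeR adjusted p = 3.02e-09). A second Cox8a SNP 11 bp away, left out of the sum for its closeness, had 3767 B reads and no D read, and the D version of its window occurred once in mm9. Cox6a1, a subunit of the liver type, had 126, 175, 167 and 128 B reads and 110, 108, 156 and 115 D reads and did not pass (log2 ratio -0.16 ± 0.19, edgeR adjusted p = 0.657). Cox7c had 45.4% ± 5.35 of 404 reads from D and did not pass. Cox7a2l had 84 B and 110 D reads and did not pass with all its SNPs (log2 ratio 0.49, edgeR adjusted p = 0.271). Cox5b had 14 reads and the assembly gene Cox16 had 2. Cox18 (chr5:90643749-90653026, minus strand), which inserts part of the mitochondrially encoded Cox2 into the membrane, had 45, 52, 47 and 36 B reads and 89, 77, 107 and 65 D reads. D was higher in each pool, with a share of 65.0% ± 4.11 (SD, n = 4) and a log2 ratio of 1.03 ± 0.17 (SE, edgeR adjusted p = 0.000926). The D share was above 50% at each of its 4 SNPs, from 54.8% (95% Wilson interval 45.7% to 63.6%) at the 5′-most to 75.8% (59.0% to 87.2%) at the 3′-most, and the interval of the first included 50%. Cox11 and Cox15, further assembly factors, had 44.4% ± 3.75 of 470 and 49.6% ± 3.00 of 263 reads from D and did not pass. Of the Cox11 SNPs 2 are also listed under Tom1l1.

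ATP synthase had exonic SNPs in 4 subunit genes. Atp5j, the coupling factor 6 of the stalk, had 286, 256, 237 and 209 B reads at 1 SNP of its 3′ UTR (chromosome 16, position 84828194) and no D read. This allows a share of D reads of up to 0.304% (edgeR adjusted p = 1.41e-08). The B window of this SNP occurred 2 times in mm9. Atp5g1, one of the genes for the c subunit of the rotor, had 4, 2, 12 and 3 B reads and 15, 15, 28 and 11 D reads at a SNP of its 5′ UTR. D was higher in each pool, with a log2 ratio of 1.81 ± 0.52 (SE, edgeR adjusted p = 0.0293), but the call rested on 90 reads and was lost without the BxD female pool (0.0817), without the library labelled DxB female (0.103) or without the DxB male pool (0.112). Atp5g2, another c subunit gene, had 5 B and 17 D reads and did not pass (edgeR adjusted p = 0.153), and its B window occurred 4 times in mm9. Atp5j2 and Atp5s, with 77 and 54 reads, did not pass.

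Reads from D were nearly absent at some SNPs of these genes and not at others. Among SNPs with at least 20 reads, 11 of 81 member SNPs (13.6%) had under 1% of reads from D, against 1342 of 30262 SNPs of other genes (4.43%). Counted by gene, 7 of 31 members and 824 of 5988 other genes had such a SNP. Neighbouring SNPs of a gene can be covered by the same reads, so the SNPs are not independent. Under 1% of reads from B was found at 0 of the 81 member SNPs and at 71 SNPs of other genes (0.235%), and at 1 of 136 intronic member SNPs. No member intronic SNP of 136 with at least 20 reads had under 1% from D, against 2.37% of intronic SNPs of other genes. Several genes held SNPs of both kinds. In the last exon of Ndufc2, at chr7:104556128-104556310, the non-synonymous SNP had 245 B reads and no D read, whereas a 3′ UTR SNP 31 bp downstream had 154 B and 224 D reads, or 59.3% from D (95% Wilson interval 54.2% to 64.1%). The other 2 coding SNPs of Ndufc2, 40 bp apart in the first exon, had 3 and 1 D reads of 1401 and 1209. In Ndufs6 the counted SNP of the 3′ UTR had 360 B reads and no D read, whereas 2 coding SNPs had 57.7% (B window 2 times in mm9) and 52.7% D reads. In Cox7a2l, which shapes respiratory supercomplexes, the 5′ UTR SNP had 51 B reads and no D read, whereas a 3′ UTR SNP had 28 B and 110 D reads, 79.7% from D, although the B window of the latter occurred 2 times in mm9. In Ndufaf1 an exon SNP annotated as intronic had 1 D read of 100, and one 70 bp away with the same annotation had 55 of 94.

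**Figure D2:**
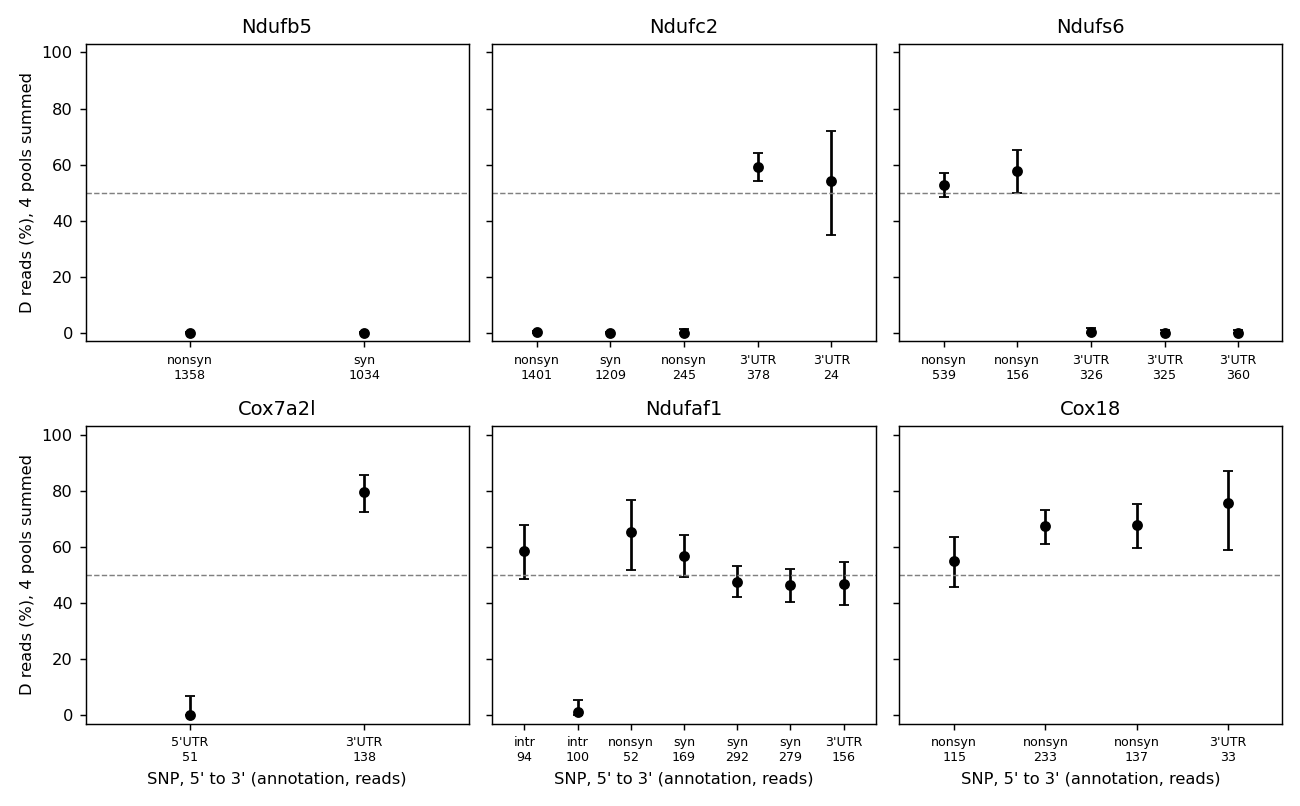
Share of D reads (y axis, %, pools summed, bars give 95% Wilson intervals) at the exonic SNPs of 6 members with at least 20 reads, those left out for spacing included, ordered from 5′ to 3′, with the annotation (syn, synonymous; nonsyn, non-synonymous; intr, annotated as intronic in the exon class) and the reads under each. In Ndufc2, Ndufs6, Cox7a2l and Ndufaf1, SNPs near 0% stand beside SNPs at 46% to 80%, whereas both Ndufb5 SNPs are at 0% and the Cox18 SNPs lie between 54.8% and 75.8%.

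When SNPs with at least 20 reads and under 1% of them from 1 allele were left out, 4 of 30 members passed, all with D higher, while 9.87% of 7561 genes passed (3.56% with D higher and 6.31% with B higher). The 4 were Ndufb7 (log2 ratio 1.27, edgeR adjusted p = 0.000221), Cox18 (0.99, 0.00312), Ndufa12 (0.73, 0.0104) and Cox7a2l, which had 33 B and 110 D reads left (1.79, 0.00498). Atp5g1, none of whose SNPs was left out, had a log2 ratio of 1.78 after 1.81 and an adjusted p of 0.0555. Ndufc2 then had 165 B and 237 D reads, and its log2 ratio turned from -3.51 to 0.62 (edgeR adjusted p = 0.192). Ndufs6 then had 321 B and 374 D reads, and its ratio turned from -0.74 to 0.31 (edgeR adjusted p = 0.344). No SNP was left in Ndufb5, Uqcrh, Cox8a and Atp5j. Each of the 6 calls with B higher thus rested on SNPs with under 1% of reads from D. The reason for the low D counts at these SNPs was not tested.

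Intronic SNPs gave a reading from other bases and other reads of the same genes. The 44 members with intronic SNPs that differ between strains were covered by 10060 reads, with 1178 on Sdhb and 1065 on Ndufs3. In the intronic fit 1120 of 9422 genes passed, which is 11.9% (4.38% with D higher and 7.5% with B higher), and so did 5 of the 44 members, 2 with D and 3 with B higher. Ndufa12 had 285 B and 436 D reads over 79 SNPs, a log2 ratio of 0.72 ± 0.19 (SE, edgeR adjusted p = 0.00224) in the direction of its exonic reads. Atp5g2 had 107 B and 165 D reads (0.79 ± 0.25, edgeR adjusted p = 0.0203). Cox7c had 287 B and 156 D reads (-0.79 ± 0.22, edgeR adjusted p = 0.00369), although its exonic SNP had 219 B and 185 D reads. Cox7a1, the isoform of heart, muscle and brown fat, had 25 B and 3 D reads over 9 SNPs (-2.74 ± 0.84, edgeR adjusted p = 0.0123) and no exonic SNP. Cox8a had 9 B reads and no D read (edgeR adjusted p = 0.0444). When single pools were left out, 3 members passed without the BxD female pool (9.41% of all genes), 2 without the library labelled DxB female (8.72%), 1 without the library labelled BxD male (8.98%) and 3 without the DxB male pool (9.95%). DESeq2 called 2 of 39 members, against 11.6% of genes. With pools blocked, 7 members passed, against 14.4% of genes. Ndufa7 (edgeR adjusted p = 0.0114) and Cox18 (0.0496) were among those that came in, and Cox8a was lost (0.182).

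Some genes with SNPs of nearly only B reads in exons had both alleles in introns. Ndufb5 had 65 B and 62 D intronic reads, a D share of 48.6% ± 8.62 (SD, n = 4), against 0% in its exonic reads. Ndufc2 had 96 B and 94 D intronic reads. Neither differed between alleles in introns beyond the spread between pools (log2 ratio 0.07 ± 0.35, edgeR adjusted p = 0.945, and 0.10 ± 0.30, edgeR adjusted p = 0.877). Ndufb7 had 295 B and 326 D intronic reads (0.24 ± 0.20, edgeR adjusted p = 0.521), and Cox18 had 203 B and 130 D intronic reads (-0.52 ± 0.24, edgeR adjusted p = 0.166, and 0.0496 with pools blocked). For Cox18 the exonic D share of 59.7% to 69.5% in the 4 pools thus stood beside an intronic one of 39.1% ± 4.37. Of 21 members with at least 20 reads in each class, 10 had exonic and intronic ratios of opposite sign: Ndufb5, Ndufc2, Cox18, Cox7a2l, Ndufa13, Ndufa3, Sdhb, Sdhc, Atp5j2 and Atp5s. These signs are those of ratios after normalisation. In Ndufb5, Ndufc2, Ndufa3 and Sdhc the summed B reads outnumbered the D reads in both classes. Over all genes with as many reads in each class 1888 of 4468 (42.3%) had opposite signs. The difference between the classes was not tested.

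**Figure D3:**
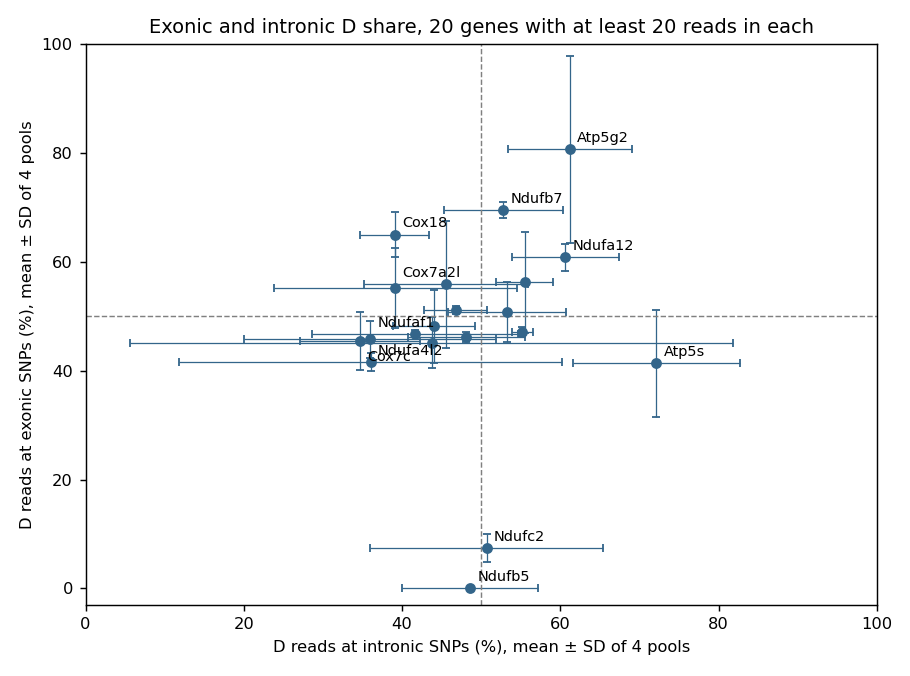
Mean share of D reads at intronic SNPs (x axis, %) and at exonic SNPs (y axis, %) for 20 members with at least 20 reads in each, with bars of 1 SD over the 4 pools. Ndufb5 and Ndufc2 lie near the middle of the x axis and near the bottom of the y axis, and Cox18 lies above 50% in exons and below it in introns.

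The share of D reads also differed along the genes of complex II, which were near even in sum. The reason for this was not tested. The 12 listed Sdhc SNPs ran from 31.9% to 51.5% D reads, and both extremes stood in the 3′ UTR 85 bp apart, with 963 B and 451 D reads at one and 1304 B and 1387 D reads at the other. The Sdhb SNPs had 58.5%, 54.4%, 52.4% and 43.9% from D in the order 5′ to 3′. In every pool the 3′-most Sdhb SNP had the lowest D share, from 42.4% to 45.6%, and the Sdhc SNP of the low extreme had 29.2% to 35.9% against 50.3% to 52.3% at the high one.

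**Figure D4:**
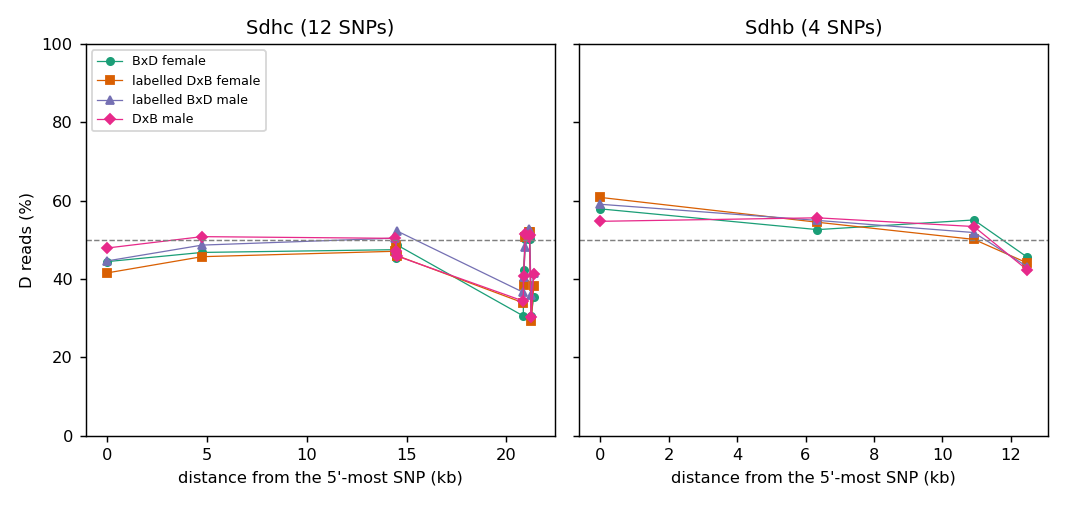
Share of D reads (y axis, %) at each exonic SNP of Sdhc and Sdhb against the distance from the 5′-most SNP of the gene (x axis, kb), with a line for each of the 4 pools. In Sdhb the pools end at 42.4% to 45.6% at the 3′-most SNP, and in the 3′ UTR of Sdhc neighbouring SNPs lie at 29.2% to 35.9% and at 50.3% to 52.3%.

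The reciprocal crosses allowed the maternal allele to be compared with the paternal allele. With the crosses as labelled, 0 of 7927 genes and 0 of 34 members passed (edgeR), 35 genes and 0 members had an unadjusted p below 0.05, and DESeq2 called 0. If the file names are right, which the X reads match, the allele taken as maternal here was B in both female and D in both male pools. Under that identity the fit with the labels does not compare the parents, and its 0 calls do not bear on them. With the crosses as the file names give them, 4 genes passed (0.0505%) and 0 members did, and again 0 members had an unadjusted p below 0.05. With the sexes as labelled, the ratio of D to B differed between the groups in 8 genes (0.101%) and 0 members (edgeR). In that edgeR fit 64 genes had an unadjusted p below 0.05. With the other identity 0 genes passed (edgeR, 107 genes at an unadjusted p below 0.05). By the file names both libraries labelled male are DxB pools and both labelled female are BxD pools. Under that identity the fit by labelled sex compares the crosses, not the sexes. Before adjustment 1 member was below 0.05 under each identity: Ndufs1 with the labelled sexes, where the log2 ratio of D to B was 0.84 lower in the libraries labelled male, and Ndufc2 with the other identity, where it differed by 0.85 ± 0.31 (SE).

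The summed B and D reads of a gene gave its level at its SNPs, as CPM (counts scaled to a fixed library total) on normalised library sizes, which depends on how many SNPs a gene has and so cannot be compared between genes. With the labels 0 of 34 members and 0 of 7927 genes passed between sexes (edgeR, 295 genes at an unadjusted p below 0.05, and 4 genes but 0 members with DESeq2, or 0.0505%). With the file names 0 members and 206 genes passed (2.6%), and 925 genes (11.7%) were below 0.05 before adjustment. Before adjustment 3 members were below 0.05 with the labels. Cox15 had at most 12.6 CPM in the libraries labelled female and at least 21.8 CPM in those labelled male (log2 difference 0.90 ± 0.25 SE), Ndufb7 had 148, 153, 190 and 193 CPM (0.35 ± 0.14), and Ndufs6 had 56.2, 59.5, 75.3 and 75.1 CPM (0.38 ± 0.16), each with an edgeR adjusted p of 0.936. All 3 were higher in both libraries labelled male, which by the file names are a female and a male DxB pool. Under that identity these differences lie between the crosses, not the sexes. With the file names 2 members were below 0.05 before adjustment, Ndufb8 with 37.7, 70.2, 52.0 and 62.2 CPM (0.57 ± 0.22, edgeR adjusted p = 0.274) and Ndufa4l2 with 80.8, 129, 106 and 129 CPM (0.47 ± 0.19, edgeR adjusted p = 0.316).

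Levels of the members still followed the pools. Among 27 members with at least 100 reads, the level was lowest in the BxD female pool in 20 (74.1%), against 28.8% of 5114 genes with as many reads, and highest in the library labelled BxD male in 16 (59.3%), against 27.4%. Sdhb had 583, 686, 852 and 667 CPM, Sdhc 645, 757, 933 and 763, and Cox8a 123, 172, 205 and 200. Each was lowest in the BxD female pool. Each group is 1 pool, so there is no test of these differences, and fewer cells of a type cannot be told apart from less RNA per cell. Of the brown adipocyte markers with SNPs, Ucp1 had 31.7, 0.244, 421 and 1.23 CPM and Cidea 2.36, 2.20, 27.5 and 4.90 CPM, both highest in the library labelled BxD male, while Prdm16 had 107, 113, 171 and 125 reads and Dio2 at most 3 reads in any pool. Of genes of other cell types, the adipocyte gene Cidec had 14019, 17091, 27097 and 16474 reads, Lep 6280, 4155, 10804 and 5113, and Lpl 161667, 179355, 197602 and 126857. The macrophage genes Cd68 and Cd14 had 1819, 1814, 962 and 1651 and 374, 223, 197 and 202 reads. The fibroblast gene Pdgfra had 3281, 1428, 1472 and 1226 reads, whereas Col1a2 had 1932, 1931, 1152 and 1183, and Col3a1 11031, 10504, 7576 and 9644. The endothelial gene Pecam1 had 221, 211, 150 and 122 reads, and the muscle gene Myh4 75, 3, 29 and 0. Unlike CPM, these reads are not scaled for the depth of the pools. The part of these markers in the members' levels was not tested.

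**Figure D5:**
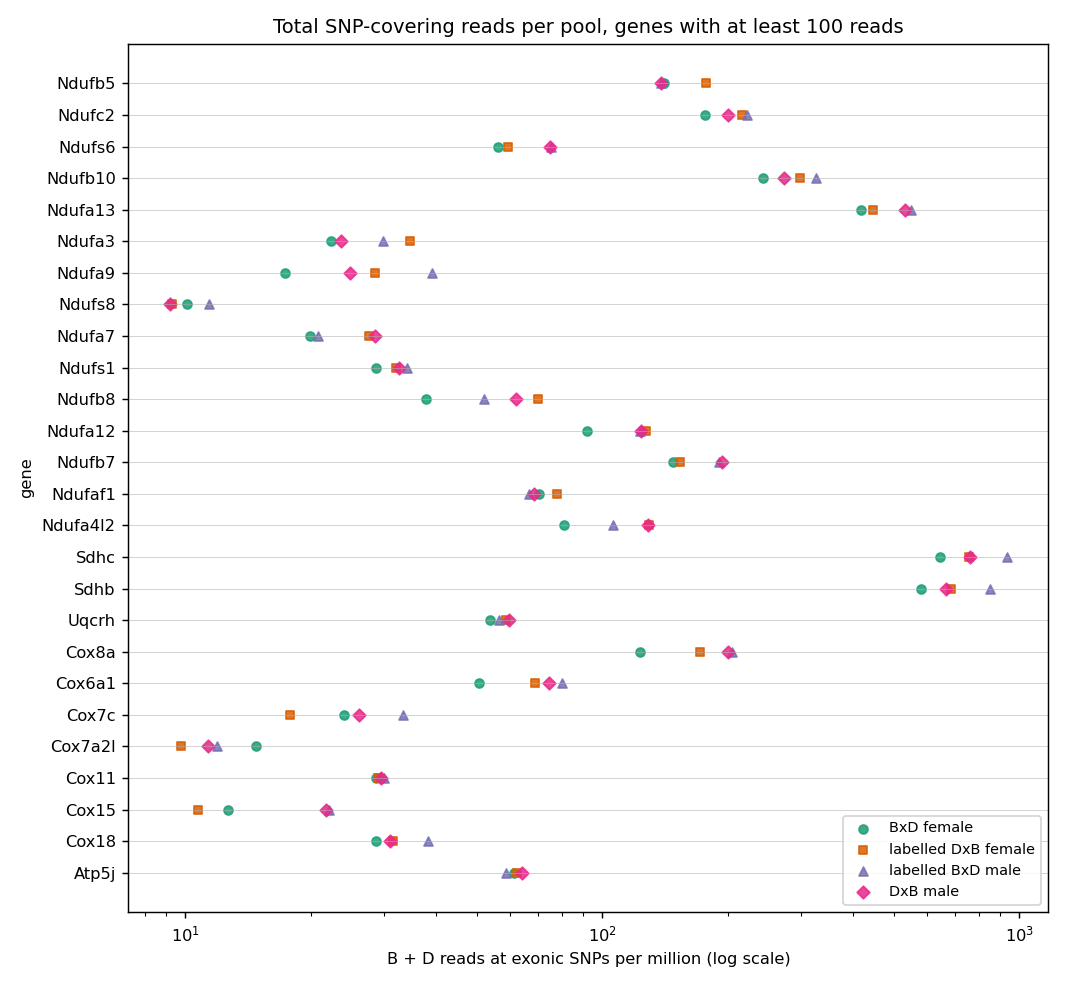
Level of 26 members with at least 100 exonic reads (x axis, CPM of B and D reads, log scale), with a symbol for each of the 4 pools. The BxD female pool is the lowest of the 4 in 19 of them, and the library labelled BxD male the highest in 15.

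Other genes of mitochondrial energy metabolism, from lists fixed by function, were read in the same fit. Of 18 listed genes of the citric acid cycle and pyruvate dehydrogenase 9 had exonic SNPs, and 3 passed, all with B higher, among them Pdhb (390 B and 106 D reads) and Pdhx (911 and 332). When SNPs with under 1% of reads from 1 allele were left out, Pdhb passed (log2 ratio -1.78, edgeR adjusted p = 0.00241), whereas Pdhx did not and turned to a ratio of 0.19. Of 22 listed assembly factors and electron carriers outside the symbols above 7 were tested and 1 passed, Usmg5, a small protein of ATP synthase, with 582 B and 4 D reads. When SNPs with under 1% of reads from 1 allele were left out, no SNP of Usmg5 remained, and 0 of the 6 genes left passed. Of 10 listed regulators 4 were tested (Nrf1, Esrra, Tfb1m and Nfe2l2), with an edgeR adjusted p of 0.284 or more. Of 8 listed uncoupling and carrier genes 6 were tested: Ucp2 passed with D higher (8933 B and 11595 D reads), and Vdac1 and Slc25a3 passed with B higher. Without those SNPs the log2 ratio of Ucp2 was 0.47 after 0.51 (edgeR adjusted p = 0.0638). This shift was like that of Nrf1 (0.063 after 0.099) and Vdac2 (0.043 after 0.079), which had not passed. The ratio of Vdac1, however, went from -1.34 to 0.035 (0.917) and that of Slc25a3 from -0.54 to 0.31 (0.277).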

How the data were processed

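RNA from 4 pools was sequenced by the authors, and the deposited values are raw allele counts, the number of reads with the B and with the D base at each SNP, without normalization. According to the methods, mates were aligned as single reads to mm9 with mrsFAST allowing up to 3 mismatches, unmapped reads with TopHat (version 1 in the submitters' processing notes, which also name CASAVA), uniquely mapped reads were kept, and known D variants were masked in the reference. The supplement shows mappings with and without masking, and in another passage sets masking aside. Removal of PCR copies is not described, so intervals and floors cover counting error only. A read that covers several counted SNPs of a gene is counted at each, so intervals and floors on summed reads can be too narrow. Aligners that allow few mismatches can lose reads of the D allele where D variants are close together.

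Rows of the exon or intron class on chromosomes 1 to 19 were used. SNPs listing 1 base for both strains (1599 rows, equal counts in all pools) were left out, as were SNPs following another within 18 bp in an exon. Of the members' 98 exonic SNPs 3 listed 1 base and 8 were too close. For 722 of 738 intronic SNPs of members the listed interval is longer than the gene, and 737 lie within the GENCODE M1 span of the gene, so introns are named by class only. A flag with the values OKAY and NOOKAY, whose meaning is not given in the sources used here, was not used as a filter.

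Counts per gene were tested with edgeR 4.0.16 in R 4.3.3 (TMM, quasi-likelihood test, Benjamini-Hochberg adjustment over all genes, threshold 0.05) on 8 allele libraries. Standard errors are the log2 ratio over the square root of F. Alternatives included DESeq2 1.42.0. The code was tested on simulated data. The B and D libraries of a pool come from the same RNA and their deviations from the strain means correlated (r = 0.635, 0.594, 0.656 and 0.523 over 4620 genes), so a fit with the pool as a block is given where it changes a call. Each group is 1 pool. The main fit of strains takes the 8 libraries as independent, so its p-values measure the spread of each allele's level between the 4 pools. Only with the pool as a block do they measure the spread of the ratio of D to B.

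Named were members past the threshold in any fit, members with under 1% or over 99% of reads from B, the 10 deepest of the rest, and members whose exonic and intronic ratios differed in sign. The members, lists and tests were chosen with earlier results of these data known. Cell type markers were read as counts only. Windows were read from the mm9 genome (NCBIM37), and protein sequences were not used here. Values of 2 genes are not reported here, though counts over all members and lists include them.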

Additional observations from a re-analysis of the deposited data

Results flagged for a closer look

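The D share of Cox6a1 in the library labelled DxB female was 38.2%, whereas the other 3 pools had 46.6% to 48.3%, a gap of 0.834 of the whole range, which is past the 95% critical value of Dixon's test for 4 samples. Of 23 members looked at in this way 1 was flagged, and chance flags about 1 in 20 groups. The gene did not pass the comparison of alleles, although B reads were more numerous in all 4 pools, and the reason for the gap was not tested.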

How the results depend on the processing

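The 10 exonic calls were 4 without SNPs under 1% from 1 allele, whether or not a minimum of 20 reads was set, and 9 to 12 in the other settings except the block. Over all genes the share that passed went from 18.3% to 9.76% without such SNPs, or 9.87% with the minimum. It was 19.8% with DESeq2 and 18.2% with 1 library size per pool. With the pool as a replicate block 15 members passed, against 32.7% of all genes. None of the 10 was lost, and the 5 added included Ndufs1, Ndufb8, Sdhb and Ndufa4l2. Leaving out single pools gave 9 to 10 exonic calls, and Ndufb8 passed without the BxD female pool (edgeR adjusted p = 0.0398). The 5 intronic calls (11.9% of all genes) were 2 with DESeq2 (11.6%), 7 with the block (14.4%) and 1 to 3 without single pools (8.72% to 9.95%). They were 2 without SNPs under 1% from 1 allele, and 4 where the SNP had at least 20 reads (9.86% of all genes). Shares of all genes in the remaining settings are not given here. The calls by parent, by strain and sex and by level were 0 members in every setting run. Of the values of single genes under other settings 652 kept direction and side of the threshold, 26 lost and 9 gained the call, and 30 changed sign, all printed next as log2 ratios of D to B, and the cause was not tested unless the setting itself removes the reads.
Exonic ratios changed sign with SNPs under 1% removed for Ndufc2 (0.62 with and without the minimum) and Ndufs6 (0.31 in both), with 50 bp spacing for Ndufa12 (-0.34) and Ndufb10 (0.019), with 1 library size per pool for Ndufa3 (-0.080), with intronic SNPs added for Ndufa3 (-0.0655) and Atp5s (0.28), and without SNPs annotated intronic for Ndufaf1 (0.10). Without single pools Ndufa3 ran from -0.044 to 0.21. Intronic ratios changed sign with 1 library size for Ndufb5 (-0.046), Ndufc2 (-0.0093) and Sdhc (-0.077), with 50 bp spacing for Ndufb5 (-0.030), Ndufc2 (-0.11) and Sdhb (0.025), without spacing for Sdhc (-0.071), and with SNPs under 1% removed for Sdhc (-0.30, and -0.37 with the minimum). Without single pools the intronic ratio ran from -0.38 to 0.0545 in Atp5j2, -1.72 to 0.46 in Cox6a1, -0.16 to 0.23 in Ndufb5, -0.17 to 0.37 in Ndufc2, -0.12 to 0.038 in Sdhb and -0.15 to 0.16 in Sdhc. Removing SNPs with the NOOKAY flag left 9 exonic calls, without Atp5j, and took Ndufs6 to -2.12. The minimum of 20 reads and the filters on the flag and on the annotation were chosen after seeing the data. With 20 to 100 reads, as for Atp5g1, Atp5j2 or Atp5s, the intervals of the D share span over 15 points.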
